A study of Homo sapiens with 6 samples.

Results

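The genes of homologous recombination and of the Fanconi anaemia pathway were examined in 92.1, an established human uveal melanoma line (a cancer of melanocytes in the eye). The set was given as 36 named recombination, Fanconi and checkpoint genes, grouped by function, with no measured value in the rule, though earlier results of these data were known when the set was proposed. All 36 were found among the 12010 genes with a named transcript. Of the 6 RNA sequencing samples, 3 received the solvent DMSO for 24 h and 3 received 0.1 µM LBH589 for 24 h. LBH589 (panobinostat) blocks histone deacetylases, which take acetyl groups off histones and other proteins. Both groups are the same line, grown alike, so every value describes 1 tumour-derived line. The labels do not say that the samples came from separate cultures, so the p-values reflect no more than the scatter among these samples, which may be technical.

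Homologous recombination repairs a broken chromosome by copying an intact sister molecule. The ends are first cut back to single strands, replication protein A (RPA) coats them, the BRCA1 and BRCA2 proteins replace it with a recombinase, and the joined molecules are then taken apart. The Fanconi pathway opens crosslinks between DNA strands at stalled replication forks: a core complex attaches ubiquitin to the FANCD2 and FANCI pair, which calls in nucleases and the recombination proteins. Many of these genes are known to be transcribed mainly in the S and G2 phases of the cell cycle.

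Expression is given as FPKM (fragments for each kilobase of transcript, relative to the fragments of the library), summed over the listed transcripts of a gene, so levels can be compared between genes. In DMSO the highest mean levels were those of EXO1 (64.5 ± 4.91 FPKM, SD, n = 3), RBBP8 (29.4 ± 0.415) and FANCL (28.5 ± 2.13), and among the lowest were FANCC (1.05 ± 0.545) and FANCA, the latter given by library below. In LBH589 the order had changed at the top, with FANCL at 50.04 ± 4.69 FPKM, RBBP8 at 27.3 ± 0.946 and NBN at 22.8 ± 0.609, while EXO1 stood at 3.67 ± 0.565. Changes were tested with limma on log2(FPKM + 1), fitted on the 11520 genes that averaged 0.5 FPKM or more, and called at a Benjamini-Hochberg adjusted p below 0.05. On this scale fold changes of weakly expressed genes come out too small. Of the 36 genes 35 could be tested, 18 fell and 1, FANCL, rose. Over all tested genes 21.6% fell and 27.2% rose. The median log2 fold change was -0.79 over the 35 genes and 0.08 over all tested genes. In 23 of the 36 all LBH589 values lay below all DMSO values (26.5% of tested genes did), and in 3 they all lay above (33.0% of tested genes did). The 18 that fell are among those 23, 16 of them fell at least 2-fold in mean FPKM and 11 at least 5-fold. RAD54L, RAD51AP1 and XRCC3 had LBH589 means below 0.5 FPKM, the level a listed transcript had to reach in at least 1 group, so they were in the files through DMSO. So were CHEK1 and FANCD2, since each of their transcripts had an LBH589 mean below that level. Among the 32 tested genes with both group means at or above that level, 16 fell and 1 rose, against 21.5 and 24.5% of all such genes. This count was added after the data were seen. It uses gene sums, so its falls still include CHEK1 and FANCD2, and it does not remove the effect of the listing. Summed over the 36 genes the level was 380.1, 399.8 and 422.5 FPKM with DMSO and 237.0, 238.9 and 229.1 FPKM with LBH589. EXO1, with means of 64.5 and 3.67 FPKM, made up the largest part of that drop.

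**Figure D1:**
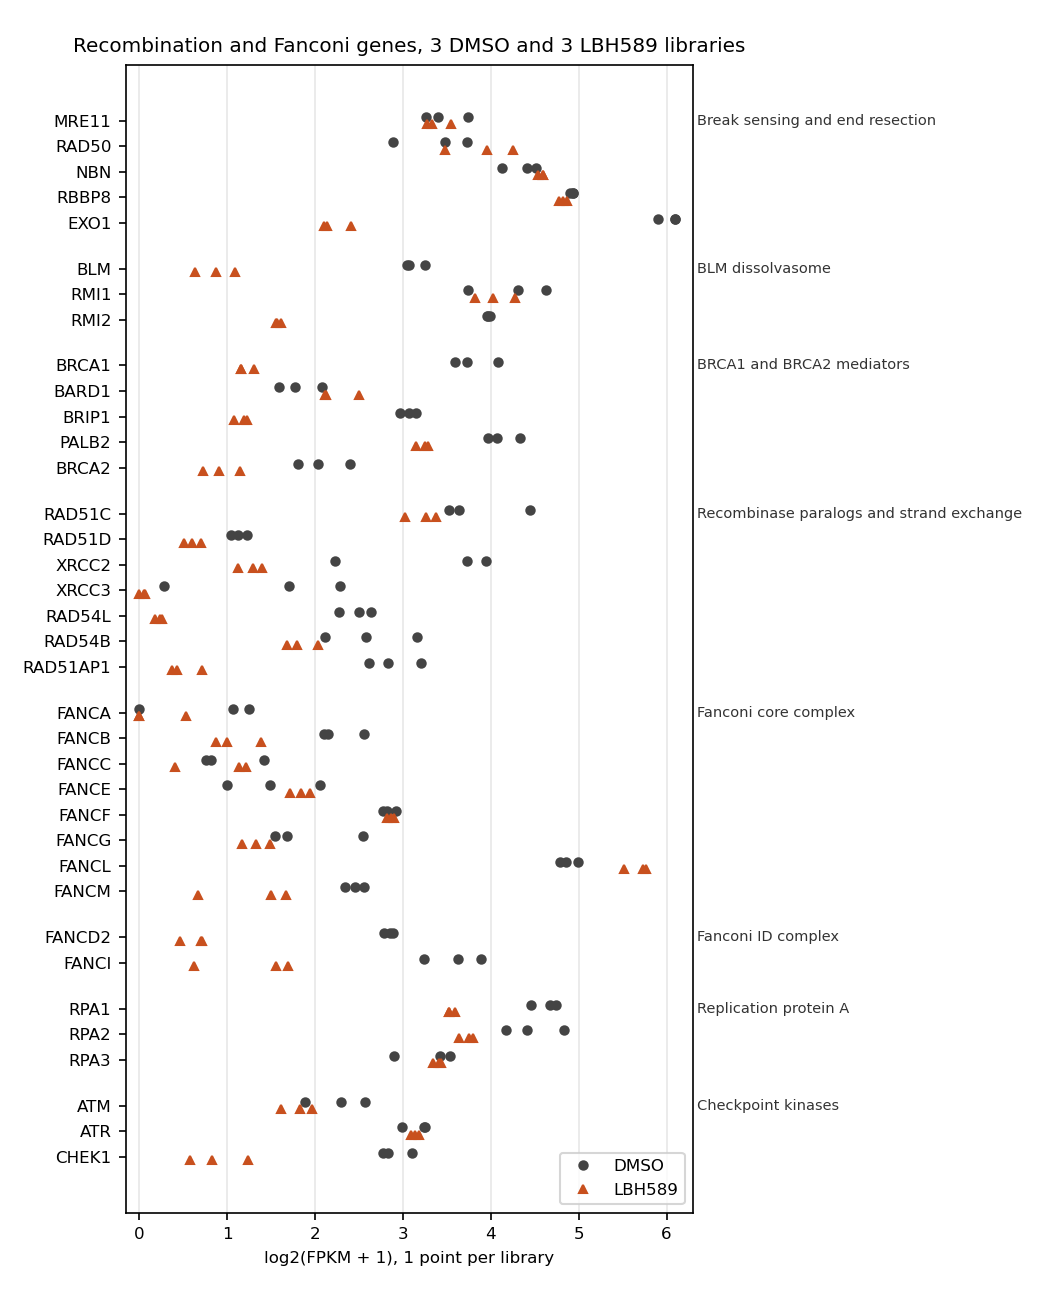
Level of each of the 36 genes in every library, as log2(FPKM + 1) on the horizontal axis, with DMSO as circles and LBH589 as triangles (3 libraries each, 1 point per library) and genes ordered by role. EXO1, BLM, RMI2, BRCA1, RAD54L, RAD51AP1, FANCD2 and CHEK1 show wide gaps between the groups, whereas MRE11, RBBP8, FANCF and ATR lie at nearly the same level in both.

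Cell cycle genes moved with this set. Of 12 proliferation markers all 12 fell, with summed levels between 430 and 497 FPKM with DMSO and between 114 and 133 FPKM with LBH589. A smaller share of dividing cells and less RNA of these genes per cell cannot be told apart in bulk samples, and their part in the falls below was not tested. The line showed its melanocyte markers: all 7 of 7 were listed, with summed levels between 2530 and 2670 FPKM with DMSO and between 718 and 774 FPKM with LBH589. TYRP1 made up most of these sums, at 1796 ± 35.8 FPKM with DMSO and 499.6 ± 16.8 FPKM with LBH589. Of the 7, 6 fell (21.6% of all tested genes did) and PMEL did not pass. The largest fall was that of SOX10, from 69.4 ± 18.3 to 0.6875 ± 0.244 FPKM. Of other cell types, 3 of 6 fibroblast, 1 of 6 leukocyte, 0 of 4 endothelial and 3 of 5 epithelial markers were listed. Summed fibroblast markers lay between 1.97 and 2.995 FPKM with DMSO and between 4.56 and 6.25 FPKM with LBH589, and both that could be tested rose (COL1A1 from 1.13 ± 0.722 to 3.32 ± 0.705 FPKM, LUM from 0.721 ± 0.152 to 1.42 ± 0.0158 FPKM). Summed epithelial markers lay between 5.52 and 8.57 FPKM and between 8.92 and 11.8 FPKM, and EPCAM rose from 0.313 ± 0.132 to 0.835 ± 0.245 FPKM. The leukocyte marker CD68 lay between 11.6 and 16.8 FPKM and between 6.69 and 12.4 FPKM. The part of these markers in the results was not tested. The leukocyte marker PTPRC and the fibroblast markers COL1A2, COL3A1 and DCN were not listed. Summed FPKM of all transcripts lay between 397174 and 422630 in DMSO and between 355148 and 367222 in LBH589. Making these sums equal moved the median log2 fold change over the whole table from 0.08 to 0.22.

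The start regions of 30 of the 36 genes were found in RefSeq windows (build GRCh38.p14), and the 250 bases before the start were searched on both strands for motifs bound by cell cycle regulators. TTCCCGCC, a form of the E2F site, was held by 6 of the 30 genes against 3.31% of 27305 genes, and CCAAT, the NF-Y site, by 15 of the 30 against 37.0%. TTTGGCGC was found in 0 and TTTCGCGC in 1 of the 30 (0.681 and 0.542% of all genes). Of the cell cycle homology elements, TTTGAA was found in 3 and TTCGAA in 0 of the 30 (16.1 and 1.5% of all genes). Of the 15 fallen genes with a window 9 held CCAAT and 3 held TTCCCGCC, and of the 14 that were not called or not tested 6 and 2 did. These matches are descriptions of the letters, not of binding. The windows differ in base composition, with a median of 65% G and C in the 30 genes and 58% in all genes. The fallen genes RAD54L, RAD51AP1 and BLM held both CCAAT and TTCCCGCC, as did RMI1, which was not called. FANCL, the gene that rose, held TTCCCGCC without CCAAT, as did FANCC, which was not called. The windows of RAD54L, RAD51AP1, BLM and FANCL are shown with matches of either motif or its reverse complement in capitals. They lie at chr1:46247438-46247687 (plus strand), chr12:4538640-4538889 (plus), chr15:90717096-90717345 (plus) and chr2:58241326-58241575 (minus).
RAD54L: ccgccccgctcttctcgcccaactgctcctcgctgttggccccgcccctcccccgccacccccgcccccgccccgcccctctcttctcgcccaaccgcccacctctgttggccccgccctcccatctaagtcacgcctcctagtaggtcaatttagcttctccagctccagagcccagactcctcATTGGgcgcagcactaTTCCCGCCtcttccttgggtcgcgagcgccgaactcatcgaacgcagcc
RAD51AP1: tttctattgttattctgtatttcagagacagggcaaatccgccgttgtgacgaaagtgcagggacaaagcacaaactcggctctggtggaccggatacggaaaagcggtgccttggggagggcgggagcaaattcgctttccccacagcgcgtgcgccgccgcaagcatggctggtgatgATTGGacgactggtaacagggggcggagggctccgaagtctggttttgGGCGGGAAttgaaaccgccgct
BLM: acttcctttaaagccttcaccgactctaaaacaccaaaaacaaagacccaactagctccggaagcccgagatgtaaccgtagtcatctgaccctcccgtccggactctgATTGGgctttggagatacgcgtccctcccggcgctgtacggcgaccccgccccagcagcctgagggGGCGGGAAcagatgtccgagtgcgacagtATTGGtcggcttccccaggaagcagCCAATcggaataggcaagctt
FANCL: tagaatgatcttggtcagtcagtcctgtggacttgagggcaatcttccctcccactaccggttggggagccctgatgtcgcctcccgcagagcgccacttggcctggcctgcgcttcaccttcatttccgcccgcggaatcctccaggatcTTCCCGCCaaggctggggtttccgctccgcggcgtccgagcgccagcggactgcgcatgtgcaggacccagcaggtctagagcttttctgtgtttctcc
The match to TTCCCGCC begins 49 bases before the start in RAD54L, 22 in RAD51AP1, 75 in BLM and 99 in FANCL. In RAD54L, RAD51AP1 and BLM a CCAAT match in reverse orientation (ATTGG) lies further upstream of it, at 65, 70 and 141 bases. BLM holds further CCAAT matches nearer the start, at 46 (reverse) and 21 bases (forward). No window was matched for NBN, RMI2, RAD54B, FANCI, RPA2 and RPA3.

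Among the genes that sense and cut back broken ends, EXO1 fell while the MRN complex and RBBP8 did not pass. EXO1, the exonuclease of long-range resection, was at 58.9, 67.5 and 67.3 FPKM for DMSO replicates 1 to 3 and at 3.30, 4.32 and 3.395 FPKM for LBH589 replicates 1 to 3. That is a 17.6-fold lower mean (log2 fold change -3.81, SE 0.13, adjusted p = 1.72e-05), the largest fall of the 35 tested genes on the log2(FPKM + 1) scale. MRE11, the nuclease of MRN, was at 8.61, 12.4 and 9.52 FPKM with DMSO and 10.7, 8.67 and 9.09 FPKM with LBH589, with overlapping groups (log2 fold change -0.08, 95% confidence interval -0.47 to 0.31). RAD50, the ATPase that bridges the ends, was at 6.42, 12.3 and 10.2 FPKM and at 14.5, 10.1 and 18.0 FPKM, a wide spread in both groups (adjusted p = 0.179). NBN, which recruits the kinase ATM, was at 16.5, 20.2 and 21.8 FPKM with DMSO and 23.2, 23.2 and 22.1 FPKM with LBH589. All LBH589 values of NBN lay above all DMSO values, but the difference did not pass (log2 fold change 0.23, adjusted p = 0.178). With equal library sums, where 32.4% of tested genes rose, it did (log2 fold change 0.40, adjusted p = 0.0287; range over the alternatives 0.0287 to 0.321), and without DMSO replicate 1 the log2 fold change was 0.12 (adjusted p = 0.291).

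RBBP8 encodes CtIP, the cofactor that starts resection. Its sum was 29.7, 28.95 and 29.7 FPKM with DMSO and 28.3, 27.3 and 26.4 FPKM with LBH589, slightly lower without overlap (log2 fold change -0.10, 95% confidence interval -0.30 to 0.10, adjusted p = 0.34). Within that sum the transcripts did not keep their shares. ENST00000327155 was at 12.9 ± 2.88 FPKM with DMSO and 6.96 ± 0.820 FPKM with LBH589 (SD, n = 3 each). It fell in a limma fit over 27042 transcripts (log2 fold change -0.79, adjusted p = 0.0492), in which 7.33% of transcripts fell and 8.62% rose. ENST00000399722 was at 8.50 ± 1.55 and 13.0 ± 1.17 FPKM, a difference that missed the threshold (adjusted p = 0.0819), but RBBP8 counted by its most abundant transcript alone, ENST00000399722, passed as a rise in the fit over genes (log2 fold change 0.57, adjusted p = 0.0394; range over the alternatives 0.0394 to 0.628). Of the summed level of these transcripts, ENST00000399722 held 38.9, 38.3 and 42.4% in DMSO and 66.2, 62.3 and 67.2% in LBH589 (two-sided exact permutation p = 0.1, the smallest that 3 against 3 samples allow). Both hold the same coding exons, 2691 bases in all, and differ in the first exon and in where the last one ends. The pair was singled out after the transcript values were seen, and the split of fragments between such similar transcripts is uncertain.

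BLM, RMI1 and RMI2 form with a topoisomerase the complex that dissolves joined DNA molecules. BLM, its helicase, was at 7.29, 8.54 and 7.41 FPKM with DMSO and at 0.826, 0.551 and 1.12 FPKM with LBH589, a 9.30-fold lower mean (log2 fold change -2.26, SE 0.16, adjusted p = 1.30e-04). RMI2, a small stabilising subunit, was tight in both groups, at 14.5, 14.96 and 14.7 FPKM and at 2.05, 1.97 and 1.94 FPKM. Its mean was 7.41-fold lower (log2 fold change -2.40, SE 0.10, adjusted p = 3.15e-05). RMI1, the scaffold subunit, was at 12.3, 18.9 and 23.7 FPKM with DMSO and 15.2, 18.4 and 13.1 FPKM with LBH589, so the LBH589 values lay within the DMSO range (log2 fold change -0.19, 95% confidence interval -0.80 to 0.42).

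Of the BRCA1 and BRCA2 group 4 of 5 fell, beside 21.6% of all tested genes. BRCA1, the ubiquitin ligase and platform that directs a break into recombination, was at 12.3, 11.1 and 15.9 FPKM with DMSO and at 1.23, 1.46 and 1.23 FPKM with LBH589. Its mean was 10.0-fold lower (log2 fold change -2.60, SE 0.16, adjusted p = 8.43e-05). All 8 listed BRCA1 transcripts add to that sum, and the most abundant one alone gave a log2 fold change of -1.31. That transcript, ENST00000357654, went from 3.24 ± 0.885 to 0.703 ± 0.288 FPKM. The others had LBH589 means below 0.5 FPKM, so they were in the files through DMSO. BARD1, the partner that BRCA1 needs as a ligase, was higher in each LBH589 library than in any DMSO library, at 2.01, 2.41 and 3.22 FPKM with DMSO and 4.67, 3.36 and 3.33 FPKM with LBH589. The difference did not pass (log2 fold change 0.44, SE 0.19, adjusted p = 0.106) but did with equal library sums (log2 fold change 0.57, adjusted p = 0.0426; range over the alternatives 0.0426 to 0.278). The ratio of BRCA1 to BARD1 within a library, which no library scaling can move, was between 4.61 and 6.12 in DMSO and between 0.264 and 0.436 in LBH589. This ratio and those below were chosen after the values were seen, each a gene that fell over a gene that did not. Lower ratios with LBH589 follow from that choice.

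BRIP1, a helicase that binds BRCA1, was at 6.84, 7.90 and 7.42 FPKM with DMSO and 1.11, 1.28 and 1.35 FPKM with LBH589 (5.95-fold lower, adjusted p = 9.88e-05). PALB2, which links BRCA1 to BRCA2, fell less, from 14.7, 15.8 and 19.1 FPKM to 8.56, 8.74 and 7.86 FPKM (1.97-fold lower, adjusted p = 0.00189). BRCA2, which loads the recombinase, was at 2.51, 3.09 and 4.26 FPKM and at 0.656, 0.877 and 1.22 FPKM (3.58-fold lower, adjusted p = 0.00445). BRCA2 had 1 listed transcript, ENST00000380152, and at a pseudocount of 0.1 its log2 fold change was -1.74 in place of -1.15.

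**Figure D2:**
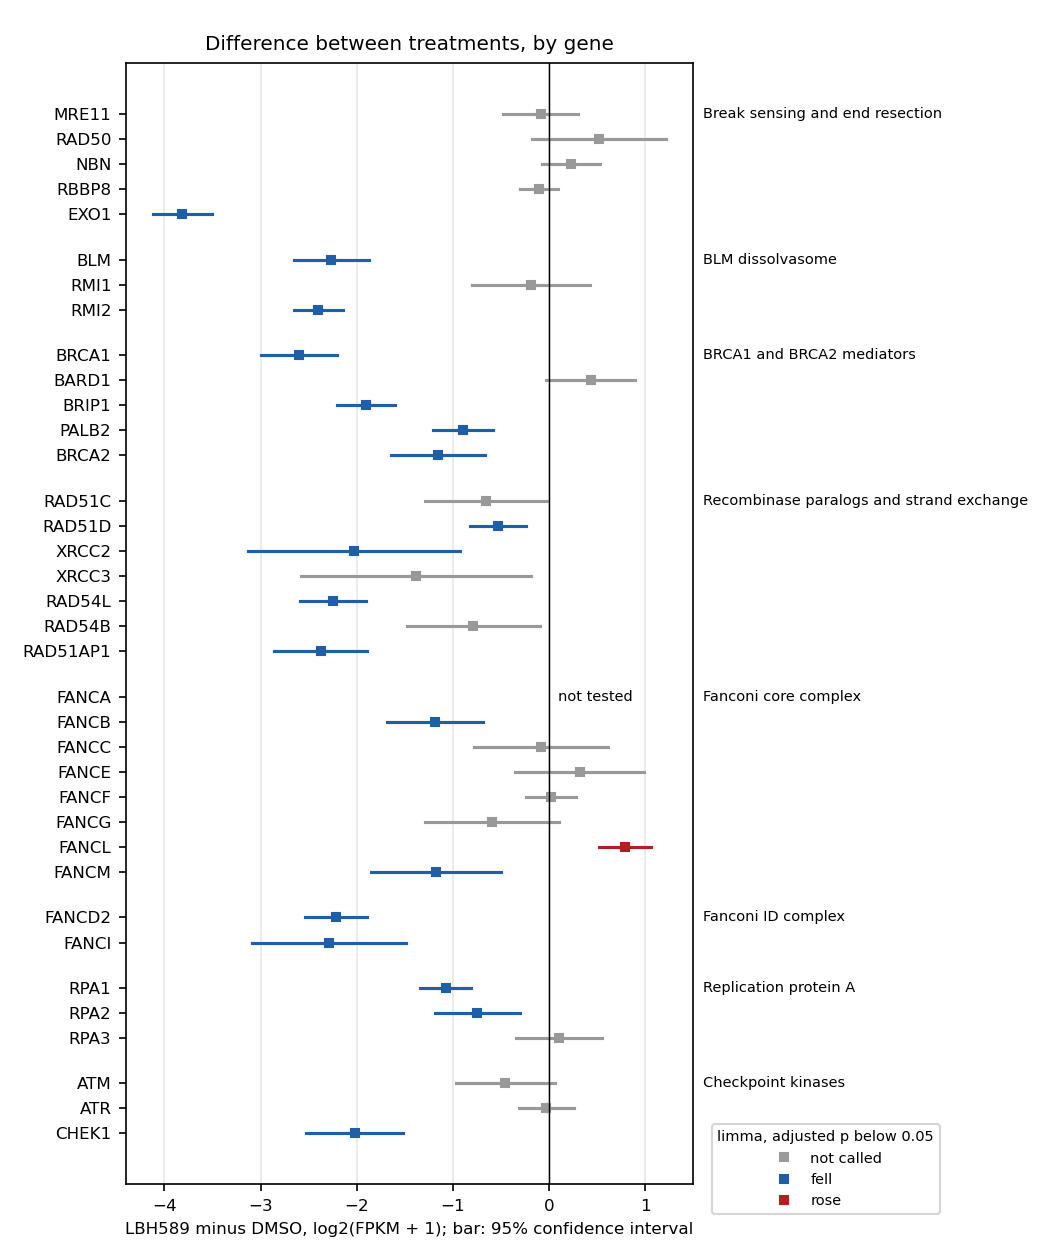
Difference between LBH589 and DMSO for each gene on the log2(FPKM + 1) scale (squares) with its 95% confidence interval from limma (bars), blue for the 18 genes that fell, red for FANCL, which rose, and grey for those that did not pass. FANCA was not tested, and partners within a role often lie far apart, such as BRCA1 at -2.60 and BARD1 at 0.44.

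In the recombinase paralogs and strand exchange genes all LBH589 values lay below all DMSO values in 7 of 7 (26.5% of tested genes did). Of the 7, 4 fell (21.6% of tested genes did). RAD54L, a motor protein that helps the recombinase to invade the template, was at 5.23, 4.65 and 3.84 FPKM with DMSO and at 0.201, 0.175 and 0.132 FPKM with LBH589. Its mean was 27.0-fold lower (log2 fold change -2.25, SE 0.14, adjusted p = 8.36e-05), and at a pseudocount of 0.1 the log2 fold change was -4.11. The gene shares 806 exon bases with LRRC41 on the opposite strand, which went from 1.92 ± 0.647 to 0.525 ± 0.405 FPKM. Strand-specific counting is not stated in the sources used here, so reads from such partners cannot be told apart. RAD51AP1, a cofactor of the recombinase, was at 8.26, 6.14 and 5.10 FPKM and at 0.297, 0.350 and 0.646 FPKM (15.1-fold lower, adjusted p = 2.47e-04). XRCC2, a recombinase paralog, was at 12.3, 3.69 and 14.4 FPKM with DMSO, with replicate 2 far below the others, and at 1.45, 1.19 and 1.63 FPKM with LBH589 (adjusted p = 0.0119). RAD51D, which pairs with XRCC2, was low throughout, at 1.34, 1.17 and 1.06 FPKM and at 0.421, 0.512 and 0.629 FPKM (adjusted p = 0.0127).

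The other strand exchange genes were lower without overlap but did not pass. RAD51C, the paralog in both paralog complexes, was at 11.5, 10.6 and 20.8 FPKM with DMSO and 7.15, 9.37 and 8.57 FPKM with LBH589 (adjusted p = 0.0868). It has 8 listed transcripts, many of them short, and the sum over those of at least 1000 bases, an alternative added after the data were seen, did pass (adjusted p = 0.0197; range over the alternatives 0.0197 to 0.613). RAD54B, a relative of RAD54L, was at 3.32, 7.96 and 5.003 FPKM and at 2.20, 3.09 and 2.46 FPKM (adjusted p = 0.0616). Without DMSO replicate 1 it passed (adjusted p = 0.0168; range 0.0168 to 0.157), and it shares 3139 exon bases with FSBP on the same strand. FSBP was at 11.1, 4.01 and 11.9 FPKM with DMSO and 5.11, 4.40 and 3.86 FPKM with LBH589, and was not called. It was lowest in DMSO replicate 2, where RAD54B was highest. How fragments were split between these genes was not tested. XRCC3, the partner of RAD51C, was at 3.87, 2.27 and 0.216 FPKM with DMSO, where replicate 3 stood apart, and at 0, 0.0407 and 0.0485 FPKM with LBH589 (adjusted p = 0.0599). Without DMSO replicate 3 it passed (log2 fold change -1.95, adjusted p = 0.00191; range 0.00191 to 0.181), as it did at a pseudocount of 0.1 (0.0267), with equal medians (0.0487) and after quantile normalization (0.0263). The listed XRCC3 transcripts are 801 and 572 bases long, and the gene shares 5756 exon bases with KLC1 on the opposite strand, which rose from 44.0 ± 1.46 to 70.6 ± 2.22 FPKM.

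Of 7 tested subunits of the Fanconi core complex 2 fell, 1 rose and 4 did not pass, beside 21.6% falls and 27.2% rises over all tested genes. FANCL, its ubiquitin ligase subunit, was at 27.9, 30.8 and 26.7 FPKM with DMSO and at 53.3, 52.2 and 44.7 FPKM with LBH589, a 1.76-fold higher mean (log2 fold change 0.79, SE 0.11, adjusted p = 0.00171). FANCB, which sits with FANCL in the catalytic module, was at 3.28, 4.91 and 3.44 FPKM and at 1.61, 0.829 and 1.00 FPKM (3.38-fold lower, adjusted p = 0.00414). Its fall lay in 1 of 3 listed transcripts, ENST00000452869, at 3.18 ± 1.05 FPKM with DMSO and 0 in each LBH589 library. ENST00000398334 did not pass (0.519 ± 0.318 and 0.599 ± 0.521 FPKM). ENST00000324138 was not tested (0.175 ± 0.303 and 0.547 ± 0.917 FPKM). FANCM, the motor protein that brings the complex to DNA, was at 4.48, 4.88 and 4.05 FPKM and at 0.585, 1.82 and 2.17 FPKM (2.93-fold lower, adjusted p = 0.0148). Its most abundant transcript alone did not pass (log2 fold change -0.72, adjusted p = 0.324; range over the alternatives 0.00998 to 0.324).

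FANCF, an adaptor subunit, was at nearly the same level in every library, 6.56, 5.83 and 6.08 FPKM with DMSO and 6.04, 6.46 and 6.26 FPKM with LBH589 (log2 fold change 0.02, 95% confidence interval -0.24 to 0.28). FANCC was at 1.68, 0.699 and 0.767 FPKM and at 0.329, 1.19 and 1.33 FPKM, and FANCE, which contacts FANCD2, at 3.15, 1.81 and 1.00 FPKM and at 2.28, 2.59 and 2.85 FPKM. Their groups overlapped and their intervals were wide (-0.78 to 0.62 and -0.35 to 0.99 on the log2 scale). FANCG, a scaffold subunit, was at 4.84, 1.93 and 2.20 FPKM and at 1.81, 1.51 and 1.25 FPKM, lower without overlap but not past the threshold (adjusted p = 0.135). After quantile normalization it passed (adjusted p = 0.0481; range 0.0481 to 0.291). FANCA, a core subunit mutated in many patients with the disease, had 1 listed transcript at 1.37, 1.09 and 0 FPKM with DMSO and 0, 0.443 and 0 FPKM with LBH589. Its mean over the 6 libraries was below the level tested.

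The rise of FANCL lay mainly in 1 of its 9 listed transcripts. ENST00000402135 was at 10.2 ± 2.27 FPKM with DMSO and 26.1 ± 3.56 FPKM with LBH589 (SD, n = 3). In the fit over transcripts it rose, by a log2 fold change of 1.29 (SE 0.20, adjusted p = 0.0128). ENST00000233741 was at 11.7 ± 3.90 and 15.9 ± 2.49 FPKM, a difference that missed the threshold (log2 fold change 0.44, adjusted p = 0.323). Each transcript has 14 exons, and exon 7 of ENST00000402135 runs 15 bases further than that of ENST00000233741, at chr2:58198579-58198593 on the minus strand (GENCODE 29, build GRCh38). These 15 bases are coding and add 5 codons (1140 against 1125 coding bases). They are shown in capitals with 30 bases of coding sequence on either side, since they are the coding difference between the transcripts.
ENST00000402135: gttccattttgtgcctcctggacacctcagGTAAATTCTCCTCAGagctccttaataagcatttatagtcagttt
ENST00000233741: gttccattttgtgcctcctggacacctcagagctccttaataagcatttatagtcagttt
The longer form held 56.7, 32.1 and 52.6% of the level of the pair in DMSO replicates 1 to 3 and 59.4, 62.03 and 65.2% in LBH589 replicates 1 to 3. The groups did not overlap, by a narrow margin at DMSO replicate 1 (two-sided exact permutation p = 0.1, the smallest possible). The pair was chosen after its values were seen, and short fragments cannot all be assigned to one form or the other. FANCL also shares 452 exon bases with VRK2 on the opposite strand, which was at 6.88 ± 0.208 FPKM with DMSO and 7.95 ± 1.87 FPKM with LBH589 and did not pass (adjusted p = 0.503).

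**Figure D3:**
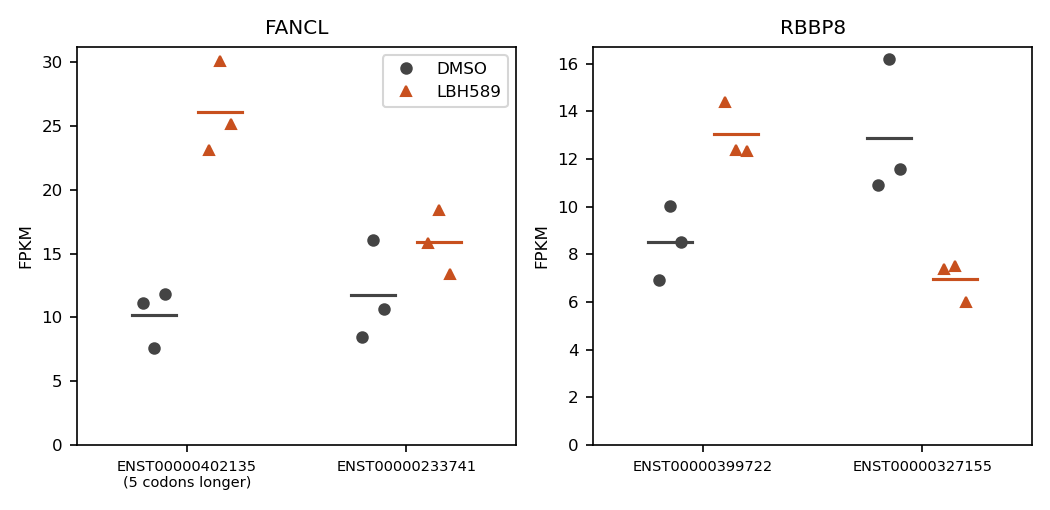
FPKM of a pair of transcripts of FANCL (left) and of RBBP8 (right) in each library, DMSO as circles and LBH589 as triangles, with horizontal lines at the means of 3 libraries and a vertical axis from 0. The longer FANCL form lies between 23.2 and 30.1 FPKM with LBH589, above its DMSO values, and the RBBP8 pair changes order between the groups.

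FANCD2 and FANCI, the pair that the core complex marks with ubiquitin, both fell. FANCD2 was at 6.25, 6.39 and 5.87 FPKM with DMSO and at 0.639, 0.382 and 0.634 FPKM with LBH589, an 11.2-fold lower mean (log2 fold change -2.21, SE 0.13, adjusted p = 7.51e-05). FANCI was at 8.44, 13.8 and 11.3 FPKM and at 1.93, 2.25 and 0.547 FPKM (7.11-fold lower, log2 fold change -2.29, SE 0.33, adjusted p = 0.00202). FANCI is split over 6 listed transcripts and its most abundant one alone did not pass (adjusted p = 0.156; range over the alternatives 0.00176 to 0.156). Set against the ligase subunit, the ratio of FANCD2 to FANCL was between 0.208 and 0.224 in DMSO and between 0.00732 and 0.0142 in LBH589. The ratio of FANCI to FANCL was between 0.302 and 0.448 and between 0.0122 and 0.0430.

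Of replication protein A, the trimer that coats single-stranded DNA, the larger subunits RPA1 and RPA2 fell and RPA3 did not pass. RPA1, the large DNA-binding subunit, was at 24.5, 21.0 and 25.7 FPKM with DMSO and at 11.1, 10.5 and 10.5 FPKM with LBH589 (2.22-fold lower, adjusted p = 5.14e-04). RPA2, the subunit that checkpoint kinases phosphorylate, was at 27.4, 17.1 and 20.2 FPKM and at 11.4, 12.5 and 12.9 FPKM (1.76-fold lower, adjusted p = 0.016). The RPA2 call ended with equal library sums (adjusted p = 0.0538) and without LBH589 replicate 1 (0.0548; range over the alternatives 0.00856 to 0.0548). RPA3, the smallest subunit, was at 6.49, 9.72 and 10.6 FPKM and at 9.15, 9.79 and 9.59 FPKM, with the LBH589 values inside the DMSO range (log2 fold change 0.11, 95% confidence interval -0.34 to 0.55). It shares 118 exon bases with UMAD1 on the opposite strand, which rose from 3.24 ± 0.412 to 7.03 ± 1.15 FPKM. Over transcripts of at least 1000 bases RPA3 passed as a rise (log2 fold change 0.34, adjusted p = 0.0398; range 0.0398 to 0.785).

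Of the checkpoint kinases, CHEK1 fell. CHEK1, the effector kinase of the replication checkpoint, was at 5.86, 6.13 and 7.60 FPKM with DMSO and at 0.493, 1.36 and 0.777 FPKM with LBH589, a 7.44-fold lower mean (log2 fold change -2.02, SE 0.21, adjusted p = 5.46e-04). ATR, the kinase upstream of it, was at 6.95, 8.43 and 8.51 FPKM and at 7.50, 8.05 and 7.78 FPKM (log2 fold change -0.03, 95% confidence interval -0.32 to 0.26). ATM, the kinase of broken ends, was at 2.70, 4.95 and 3.93 FPKM and at 2.90, 2.05 and 2.56 FPKM, with overlapping groups (adjusted p = 0.128). Without DMSO replicate 1 ATM passed as a fall (log2 fold change -0.64, adjusted p = 0.0305; range over the alternatives 0.0305 to 0.599). Of the genes above, CHEK1 shares 80 exon bases with STT3A on the same strand (which fell, from 23.2 ± 1.56 to 14.1 ± 2.25 FPKM), FANCI 458 with POLG (not called) and RPA1 156 with SMYD4 (which fell, from 4.17 ± 0.0988 to 2.58 ± 0.214 FPKM), both on the opposite strand. Also on the opposite strand, ATM shares 114 exon bases with C11orf65 (listed at 0 in each DMSO library and at 2.74, 2.99 and 1.71 FPKM with LBH589) and 143 with NPAT, MRE11 225 with ANKRD49 and FANCA 2302 with ZNF276. NPAT, ANKRD49 and ZNF276 were not called. The ratio of CHEK1 to ATR was between 0.727 and 0.892 in DMSO and between 0.0657 and 0.169 in LBH589.

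**Figure D4:**
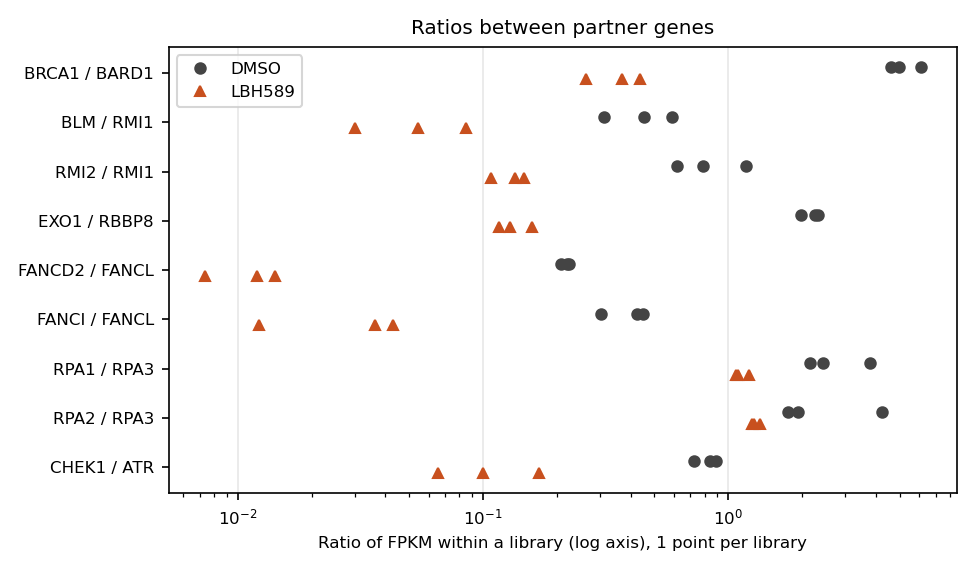
Ratio of FPKM between genes that work together, within each library, on a log axis, DMSO as circles and LBH589 as triangles (3 libraries each). All 9 ratios set a gene that fell over a gene that did not, and were chosen after the values were seen. Lower ratios with LBH589 therefore follow from that choice. The LBH589 values lie below the DMSO values in each, with RPA2 to RPA3 the closest (1.25 to 1.34 against 1.75 to 4.23).

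The 36 genes have 112 listed transcripts, of which 92 were tested, 26 fell and 1, that of FANCL, rose. Over all tested transcripts 7.33% fell and 8.62% rose. The falls came from 16 genes. Many of the fallen transcripts had LBH589 means below 0.5 FPKM, so they were in the files only through DMSO and the listing favoured falls. Among them were FANCB ENST00000452869 (LBH589 mean 0 FPKM), FANCD2 ENST00000383807 (0.0182 FPKM) and RAD54L ENST00000371975 (0.169 FPKM). In EXO1, of 7 listed transcripts, ENST00000348581 fell from 24.7, 22.1 and 30.9 FPKM to 1.42, 0 and 2.45 FPKM and ENST00000366548 from 18.3, 17.7 and 20.8 FPKM to 1.30, 2.73 and 0.0210 FPKM. Both code for the same 2538 bases. In LBH589 their shares of the pair ran from 0 to 99.2% for ENST00000348581, so the split of a low total between them was not stable from library to library.

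The rest of the repair genes, in lists drawn up by function, are given for comparison, with 38 falls and 15 rises among 116 tested, beside 21.6 and 27.2% of all tested genes. With equal library sums these counts were 23 and 21, beside 17.5 and 32.4%. Of 42 tested further recombination and Fanconi genes 13 fell and 7 rose (median log2 fold change -0.19). POLQ, the polymerase of microhomology end joining, fell from 3.98, 5.59 and 5.80 FPKM to 0, 0 and 0.00886 FPKM. EME1, a nuclease subunit, fell from 3.01, 2.23 and 2.65 FPKM to 0.0536, 0 and 0.383 FPKM. Both were in the files through their DMSO level. MCM8, a helicase subunit of recombination, fell from 12.6 ± 1.13 to 4.48 ± 0.333 FPKM. SFR1, a subunit of a complex that stimulates the recombinase, rose from 2.43 ± 0.192 to 8.32 ± 0.303 FPKM. Of 12 tested replication checkpoint genes 6 fell and 2 rose. CLSPN, the adaptor through which ATR activates CHEK1, fell from 17.8 ± 1.52 to 1.54 ± 0.276 FPKM, CDC25A, a phosphatase that CHEK1 targets, from 9.11 ± 0.383 to 0.688 ± 0.04995 FPKM, TOPBP1, an activator of ATR, from 32.9 ± 4.18 to 11.2 ± 0.413 FPKM and WEE1, a kinase that restrains CDK1, from 10.6 ± 0.766 to 2.28 ± 0.706 FPKM. Of 12 genes of break signalling 5 fell and 1, RNF168, a ubiquitin ligase of histones, rose from 9.55 ± 1.77 to 16.1 ± 3.38 FPKM. The RNF168 call ended without DMSO replicate 2 or 3 or LBH589 replicate 2 (adjusted p = 0.0766, 0.0685 and 0.0646). Of the falls, those of MDC1, RNF8 and DYNLL1 ended with equal library sums (adjusted p = 0.0793, 0.0514 and 0.0521).

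Among the other repair pathways, 4 of 10 tested end joining genes fell and 1 rose, beside 21.6 and 27.2% of all tested genes. LIG4, the ligase of that pathway, rose from 11.8 ± 0.596 to 28.3 ± 1.07 FPKM (adjusted p = 1.71e-04). XRCC4, XRCC6 and DCLRE1C fell (adjusted p = 0.0143, 0.0157 and 0.0117). The calls of XRCC4 and XRCC6 ended with equal library sums (0.0966 and 0.0969), and that of DCLRE1C with the most abundant transcript (0.2835). Of 17 tested genes of base excision and single-strand break repair 8 fell and 0 rose, beside 21.6 and 27.2% of all tested genes. The falls were led by NEIL3, a glycosylase (7.63 ± 0.469 to 0.414 ± 0.0883 FPKM), and FEN1, the flap nuclease of replication (30.8 ± 5.95 to 3.70 ± 0.355 FPKM). Of 16 tested nucleotide excision genes 1 fell and 4 rose, the rises being near the share of all tested genes (27.2%), among them CETN2, which binds the damage sensor XPC (41.1 ± 3.51 to 76.4 ± 7.61 FPKM). Medians of the log2 fold change were -0.78 for the replication checkpoint, -0.37 for end joining, -0.30 for break signalling, -0.16 for base excision, -0.04 for mismatch repair and 0.26 for nucleotide excision repair. No test compared the lists with each other.

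**Figure D5:**
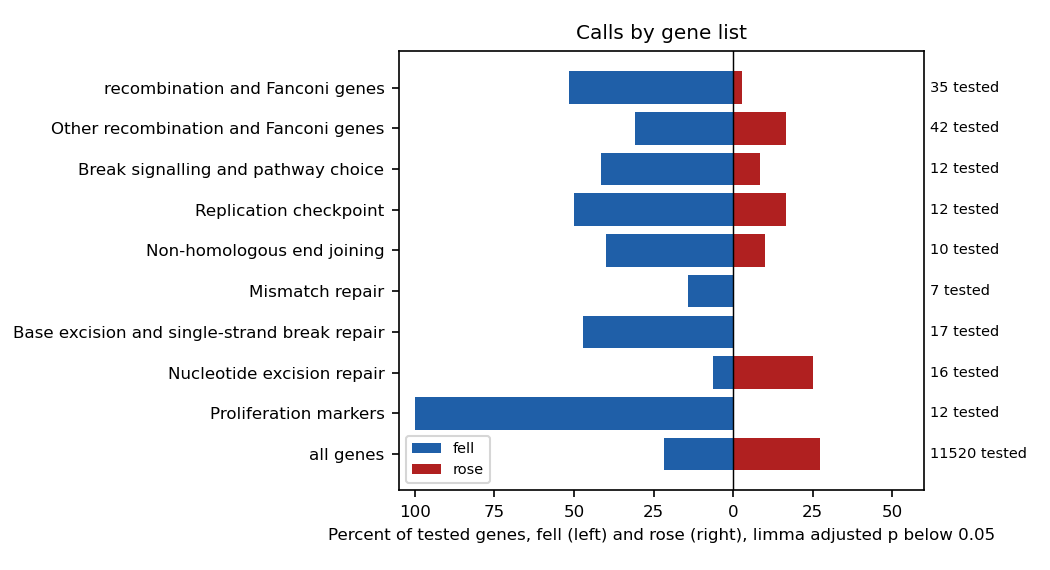
Percent of tested genes that fell (left, blue) and rose (right, red) in each list, by limma at adjusted p below 0.05, with the number tested at the right edge. Recombination and Fanconi genes have 18 falls and 1 rise among 35, proliferation markers 12 falls among 12, and all genes 21.6% falls and 27.2% rises.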

How the data were processed

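RNA of 6 samples of 92.1 cells was sequenced after TruSeq library preparation, according to the labels. Values were deposited as FPKM, 1 for each transcript, per the file headers. The submitters' processing notes list Bowtie 0.12.2 and the build hg19 and give no roles. How FPKM was estimated, the annotation, the strand setting and any transcript filter: not given in the sources used here. No listed transcript had its higher group mean under 0.5 FPKM. XRCC3, RAD54L, RAD51AP1 and FANCA, 4 members with LBH589 means below that level, were therefore listed through DMSO, as were POLQ, EME1 and NEIL3. The same holds for CHEK1 and FANCD2, since each of their transcripts had an LBH589 mean below that level.

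The 30624 transcripts were named by identifier through GENCODE release 29 (99.6% named), and FPKM was summed per gene. The files hold no counts, so depth is unknown and no counting interval can be given. The test used limma 3.58.1 in R 4.3.3 with statmod 1.5.0, on log2(FPKM + 1), for genes averaging 0.5 FPKM or more in the 6 libraries, with robust, trended moderation and no term besides treatment. Transcripts were tested likewise. The code was tested on simulated data. Transcript shares were compared with exact permutation tests (scipy 1.17.1). Motif windows come from RefSeq (GRCh38.p14), a later build than hg19.

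The members and lists were chosen with earlier results of these data known. All members are named, and from other lists only genes among the 4 with the smallest adjusted p. Marker genes and genes that overlap a member are named besides. Alternatives were another pseudocount, filters, scalings, single transcripts and moderation, a stricter threshold, a block for the replicate number, and the omission of each library. The transcript length minimum, the counts over genes with both group means at the listing level, the transcript pairs and the partner ratios were chosen after seeing the data.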

Additional observations from a re-analysis of the deposited data

How the results depend on the processing

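Of the 35 members 18 fell. The count was 16 to 20 under the other scalings, filters, transcripts and moderation, except at a mean of at least 5 FPKM, which left 18 members to test, 8 of them fallen. At adjusted p below 0.01 it was 14. FANCL was the single rise, joined by BARD1 and NBN with equal library sums (3 rises), RBBP8 with the most abundant transcript (2) and RPA3 over transcripts of at least 1000 bases (2). Leaving out 1 library gave 17 to 20 falls and 1 rise. Of 116 other repair genes tested, 38 fell and 15 rose, against 22 falls at a mean of at least 5 FPKM, 23 with equal library sums (where 21 rose), 25 with the most abundant transcript and 22 at adjusted p below 0.01, where 8 rose. Over the 108 with both group means at least 0.5 FPKM, 33 fell and 15 rose. Leaving out 1 library gave 29 to 37 falls and 13 to 17 rises.

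The log2 fold change turned sign in members that had not passed: with equal library sums MRE11 (0.08), RBBP8 (0.07), FANCC (0.00) and ATR (0.13), with equal sums without mitochondrial genes ATR (0.01), with equal medians and after quantile normalization FANCF (-0.01 in both), with the most abundant transcript RBBP8 (0.57, adjusted p = 0.0394) and RMI1 (0.08), and over longer transcripts ATR (0.01). Without 1 library it ran from -0.18 to 0.05 in MRE11, -0.43 to 0.01 in RMI1, -0.23 to 0.17 in FANCC, -0.01 to 0.06 in FANCF, -0.08 to 0.23 in RPA3 and -0.11 to 0.02 in ATR. The cause was not tested.

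Deviations of samples with the same replicate number had correlations of -0.104, 0.0215 and -0.035. Those of samples with different numbers lay between -0.0495 and 0.0847. These values cannot show whether samples with equal numbers were handled together. With the replicate block 18 members fell and 1 rose, and 30 other repair genes fell and 14 rose. RAD51D (adjusted p = 0.0547) and RNF168 (0.0662) then did not pass and RAD54B did (0.0403).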
